A study of Mus musculus with 6 samples.

Results

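Small RNAs that normally carry no poly(A) tail were followed in mouse cumulus granulosa cells: the small nucleolar RNAs (snoRNAs), the small Cajal body RNAs (scaRNAs), the spliceosomal-type RNAs with Rnu symbols and several RNAs named after the particles they build. The members were all rows whose symbol starts with Snora, Snord, Scarna, Rnu or Rny, or equals Rmrp, Rpph1, Terc, Rn7sk or Vaultrc5, with a base mean above 0. The base mean is the average over libraries of the read count divided by the library's size factor. Of 128 rows with such symbols, 104 had a base mean above 0 and 24 were at 0, in a table of 24982 rows of which 19241 were above 0. Y RNAs (Rny) and Rn7sk had 0 rows and are not analysed here.

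The samples were cumulus granulosa cells, which surround and nourish the oocyte, from mice of the Kun-Ming strain. There were 3 control libraries and 3 Atg5-KD libraries, both numbered 2, 3 and 4, and the knockdown used short hairpin RNAs directed at Atg5, a gene of autophagosome formation. What the control cells received is not stated by the labels. They also do not say that replicate libraries stem from separate cultures or animals, so p-values measure only how far these libraries spread, and that spread may be technical. The labels call the RNA polyA RNA, while their protocol text starts from total RNA and describes no selection step. That text names both a NEBNext Ultra RNA kit and, for cDNA amplified beforehand, a TruePrep kit, without saying which made which library, and the kit bears on which RNAs without a tail are counted. The direction, Atg5-KD over control, rests on which group stands first in the name of the authors' deposited table, and the fold change of Atg5 there (log2 -0.06, SE 0.14, adjusted p 0.822) gives no check of it.

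SnoRNAs guide chemical changes of other RNAs: those of the H/ACA class direct pseudouridylation and those of the C/D class direct methylation of the ribose, mostly in ribosomal RNA. ScaRNAs do the same for spliceosomal RNAs in Cajal bodies. In mammals most of them are cut out of the introns of host genes, many of which encode ribosomal proteins and translation factors, and their mature ends carry bound proteins rather than a poly(A) tail. Rmrp and Rpph1 are the RNA subunits of the ribonucleases MRP and P, which cut precursors of ribosomal and transfer RNA, share most of their protein subunits and are transcribed by RNA polymerase III. Terc is the template RNA of telomerase, and Rnu12, Rnu11, Rnu6 and Rnu7 name small nuclear RNAs that work in splicing or in the maturation of histone mRNA.

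Rmrp and Rpph1 are shown first because they were the 2 members that passed the deposited test. Sequences and positions are from GENCODE M21 on GRCm38, which is the same assembly as mm10. Rmrp is a gene of 271 bases at chr4:43492788-43493058, minus strand, and Rpph1 one of 319 bases at chr14:50807449-50807767, minus strand, of which the first 300 are printed (chr14:50807468-50807767). Capitals mark the longest stretches found in both RNAs, each of 9 bases, which begin at bases 183 and 221 of Rmrp and at bases 17 and 246 of Rpph1.
Rmrp: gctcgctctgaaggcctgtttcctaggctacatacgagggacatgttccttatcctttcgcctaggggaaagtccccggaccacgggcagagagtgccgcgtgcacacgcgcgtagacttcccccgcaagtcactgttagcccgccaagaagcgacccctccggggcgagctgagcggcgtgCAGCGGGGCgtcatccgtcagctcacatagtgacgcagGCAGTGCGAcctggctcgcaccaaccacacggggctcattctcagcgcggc
Rpph1: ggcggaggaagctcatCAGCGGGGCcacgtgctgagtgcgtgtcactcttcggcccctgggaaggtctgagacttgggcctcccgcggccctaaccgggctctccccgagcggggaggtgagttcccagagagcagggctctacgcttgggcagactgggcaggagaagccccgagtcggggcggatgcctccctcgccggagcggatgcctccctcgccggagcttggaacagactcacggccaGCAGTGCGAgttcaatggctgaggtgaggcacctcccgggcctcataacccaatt

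Both snoRNA classes are shown next, with a pair of abundant members each, because of the short boxes that bind the class's proteins. Snord96a (81 bases, chr11:48802032-48802112, plus strand) had the highest base mean of all members, and Snord104 (70 bases, chr11:106500993-106501062, plus strand) lay in no same-strand host. Capitals mark the C box letters TGATGA and the D box letters CTGA.
Snord96a: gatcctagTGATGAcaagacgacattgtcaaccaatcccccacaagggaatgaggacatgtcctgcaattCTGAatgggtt
Snord104: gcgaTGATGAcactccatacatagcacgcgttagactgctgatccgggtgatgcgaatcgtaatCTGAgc
Snora31 (130 bases, chr14:75847905-75848034, plus strand) and Snora65 (130 bases, chr2:32963291-32963420, plus strand) were the H/ACA members of highest base mean. Capitals mark the ACA letters that lie 3 bases before the end.
Snora31: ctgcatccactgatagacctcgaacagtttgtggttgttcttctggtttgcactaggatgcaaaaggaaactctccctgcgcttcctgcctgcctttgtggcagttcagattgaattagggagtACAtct
Snora65: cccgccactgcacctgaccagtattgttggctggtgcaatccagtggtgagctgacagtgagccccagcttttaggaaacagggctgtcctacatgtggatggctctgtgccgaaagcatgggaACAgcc

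The boxes were found in most members, searched on the RNA strand only. TGATGA followed by CTGA occurred in 39 of the 59 Snord members (66.1%), in 0 of the 31 Snora members and in 0.292% of the 32851 RefSeq promoter windows cut to the median C/D length of 78 bases. ACA lay 2 to 4 bases before the end in 29 of 31 Snora members (93.5%), in 2 of 59 Snord members and in 4.79% of promoter windows of 130 bases. Both classes are therefore described apart by symbol, and the letters are a description of the annotated genes, not of the sequenced fragments.

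The first question was how many members had enough reads. The digits of the base means could be resolved into whole reads in each library, and in this way 7101 reads were assigned to the 104 members over the 6 libraries. The control libraries, called a, b and c in order of their size factor because the digits carry no replicate number, held 1299, 1557 and 1389 of these reads, and the Atg5-KD libraries a, b and c held 1012, 936 and 908. The libraries held an estimated 16528667 to 17851317 counted reads in the control group and 11264827 to 12901039 in the Atg5-KD group, so that a count of 0 allows up to 0.168 to 0.182 and 0.233 to 0.266 reads per 1000000 counted reads respectively, for counting error only. All members together made up 81.9 of every 1000000 counted reads in control libraries and 77.8 in Atg5-KD libraries. Snord96a alone held 12.9% of the members' reads.

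Of the 104 members, 69 had an adjusted p in the authors' deposited table and 35 lay under its limit on low values; 30 had a base mean of at least 10, and 68 had at least 1 read in every library. By class, an adjusted p was given for 26 of 31 H/ACA snoRNAs, 36 of 59 C/D snoRNAs, 3 of 9 scaRNAs, 1 of 2 Rnu rows, Rmrp, Rpph1 and Terc. Base means of 10 or more belonged to 11 H/ACA and 15 C/D snoRNAs, 1 scaRNA (Scarna2), 1 Rnu row (Rnu73b), Rmrp and Rpph1. Just under the limit stood Snord111 with a base mean of 2.96 and just above it Snora23 with 3.49. The rows at 0 were 5 H/ACA, 15 C/D and 3 Rnu genes and Vaultrc5, an RNA of the vault particle.

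**Figure D1:**
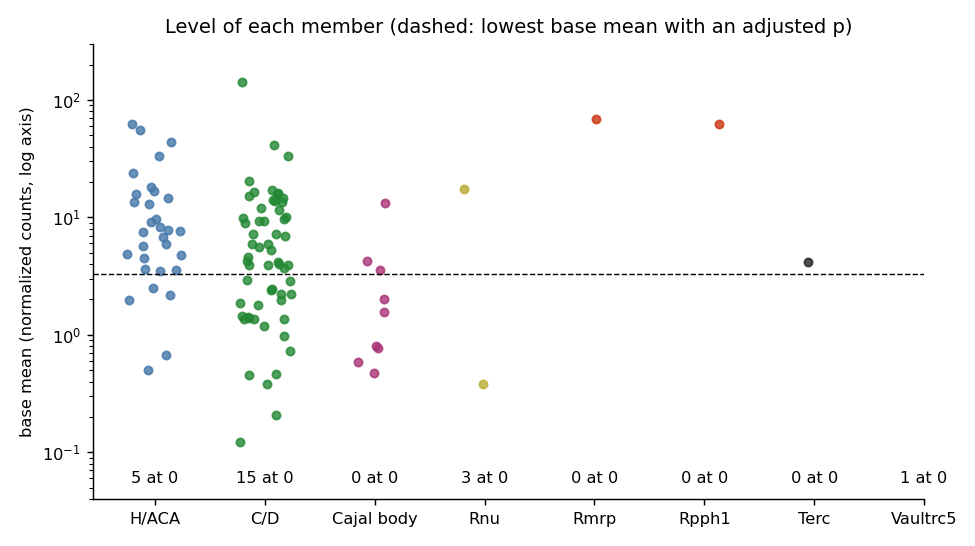
Base mean (normalized counts, log axis) of each of the 104 members above 0, by class, with the number of rows at 0 written under each class. The dashed line marks where adjusted p-values begin (3.31), and Snord96a, Rmrp, Snora31 and Rpph1 are the 4 highest points.

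Per length, the medians of both tested snoRNA classes lay between the quartiles of tested protein-coding genes. The median level was 66.1 normalized counts per kilobase for the 26 tested H/ACA snoRNAs, 97.0 for the 36 tested C/D snoRNAs and 32.3 for the 3 tested scaRNAs, beside 80.7 for the 13762 tested protein-coding genes (quartiles 20.1 and 204.7). With the members too low to be tested included, the medians were 58.6, 51.1 and 6.25 for 31, 59 and 9 members. The lowest tested base mean, 3.31, is a higher level per kilobase in a short gene than in a long one. The place of the tested snoRNAs among tested protein-coding genes was therefore set in part by this limit. For 60 tested members with a host row, the level per kilobase was at a median of 9.36% of the host gene's own level, and 55 of the 60 lay below their host. The exceptions were Scarna9, Snord22, Snord99, Snora16a and Snord52. The longest run of A in a member had a median of 3 bases both in the 30 members with a base mean of at least 10 and in the 74 below it. A run of 6 or more occurred in 3 of the former (Snord42b, Snord72 and Snord123) and 2 of the latter (Snord49b and Scarna10), all named after their values were seen.

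Between the groups, the authors' deposited table called 2 members higher in Atg5-KD libraries and 0 lower at an adjusted p under 0.05. Over all 14835 rows tested there, 10.4% were called higher and 10.5% lower; among the 5304 tested rows with a base mean under 150, the range of the members, the shares were 5.83% and 5.64%. With 2 of 69 higher and 0 of 69 lower, the members' calls did not exceed this background in either direction. At an unadjusted p under 0.05 the deposited DESeq2 test gave 6 members higher (Rmrp, Rpph1, Snord70, Scarna2, Snora31 and Snord111) and 0 lower, beside 12.4% and 12.3% of all 19241 rows with a p. The median log2 fold change of the 69 tested members in the authors' deposited table was 0.13, beside 0.00 for all tested rows and 0.04 for tested rows of base mean under 150. Of the 69 members, 43 lay above 0 and 26 below, while 50.4% of all tested rows lay above 0. For the 30 members with a base mean of at least 10 the median was -0.01, beside -0.003 for all tested rows at that level. The positive median was thus not seen in the better measured members. From the deposited standard errors, a call needed a log2 fold change of 0.48 for the best measured member, a median of 1.75 and up to 2.99, and 9 of the 69 members could have been called for a change under 1.

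**Figure D2:**
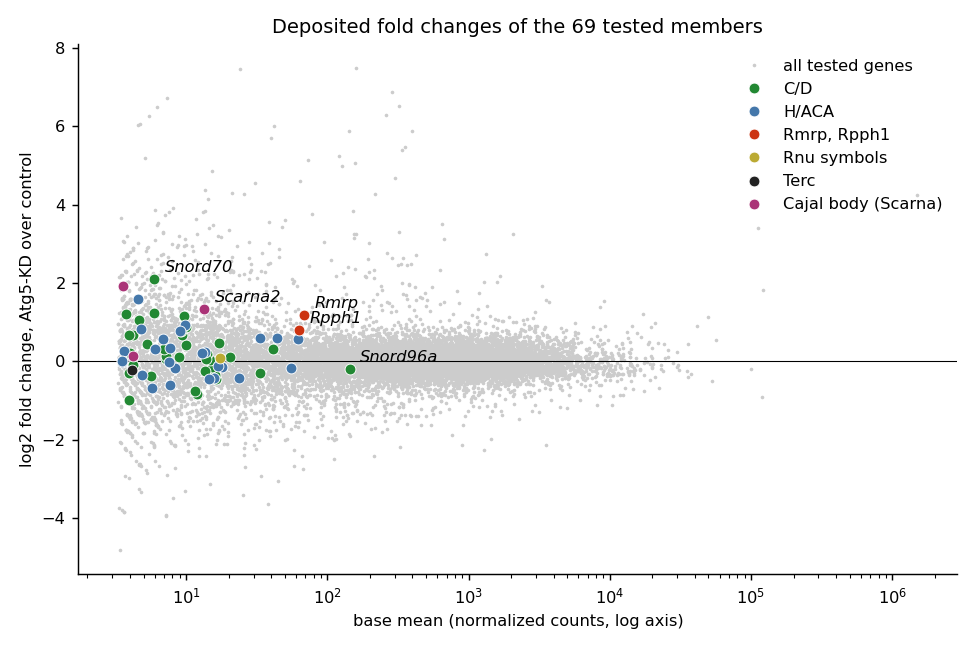
Deposited log2 fold change (Atg5-KD over control) against base mean (normalized counts, log axis) for the 69 tested members, coloured by class, and for all 14835 tested rows in grey. Rmrp and Rpph1, the 2 called members, lie at 1.18 and 0.79, and most other members lie within the grey cloud around 0.

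Rmrp had 43, 49 and 74 reads in control libraries a, b and c and 75, 82 and 61 in Atg5-KD libraries a, b and c. Divided by size factors, this was 31.4, 36.6 and 58.3 against 93.2, 104.6 and 86.8. All 3 Atg5-KD values lay above all 3 control values, with means of 42.1 ± 14.3 and 94.9 ± 9.03 (SD, n = 3 each). The authors' deposited table gave an estimate of 1.18 on the log2 scale (SE 0.28, adjusted p 0.000380), a rise of 2.26-fold, and the call was kept when any 1 of the 6 libraries was left out.

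For Rpph1 the reads were 51, 59 and 72 in the control libraries and 66, 56 and 60 in the Atg5-KD libraries. Normalized values were 37.2, 44.0 and 56.8 against 82.0, 71.5 and 85.4, again without overlap, with means of 46.0 ± 9.92 and 79.6 ± 7.27 (SD, n = 3 each). The authors' deposited table put it at 0.79 on the log2 scale (SE 0.27, adjusted p 0.0210), a rise of 1.73-fold. This call depended on single libraries: with the authors' dispersion kept, its p in the refitted Wald test passed the largest deposited p that was called (0.0104) only without control c (0.00156) or without Atg5-KD b (0.00425), and missed it without control a (0.0286), control b (0.0118), Atg5-KD a (0.0116) or Atg5-KD c (0.0146). Together, both RNAs rose from 88.1 ± 24.1 to 174.5 ± 2.04 normalized reads (SD, n = 3 each), a log2 ratio of 0.99 given with no test. The pair was put together from the 2 called members, so the rise of its sum follows from that choice and adds no support.

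**Figure D3:**
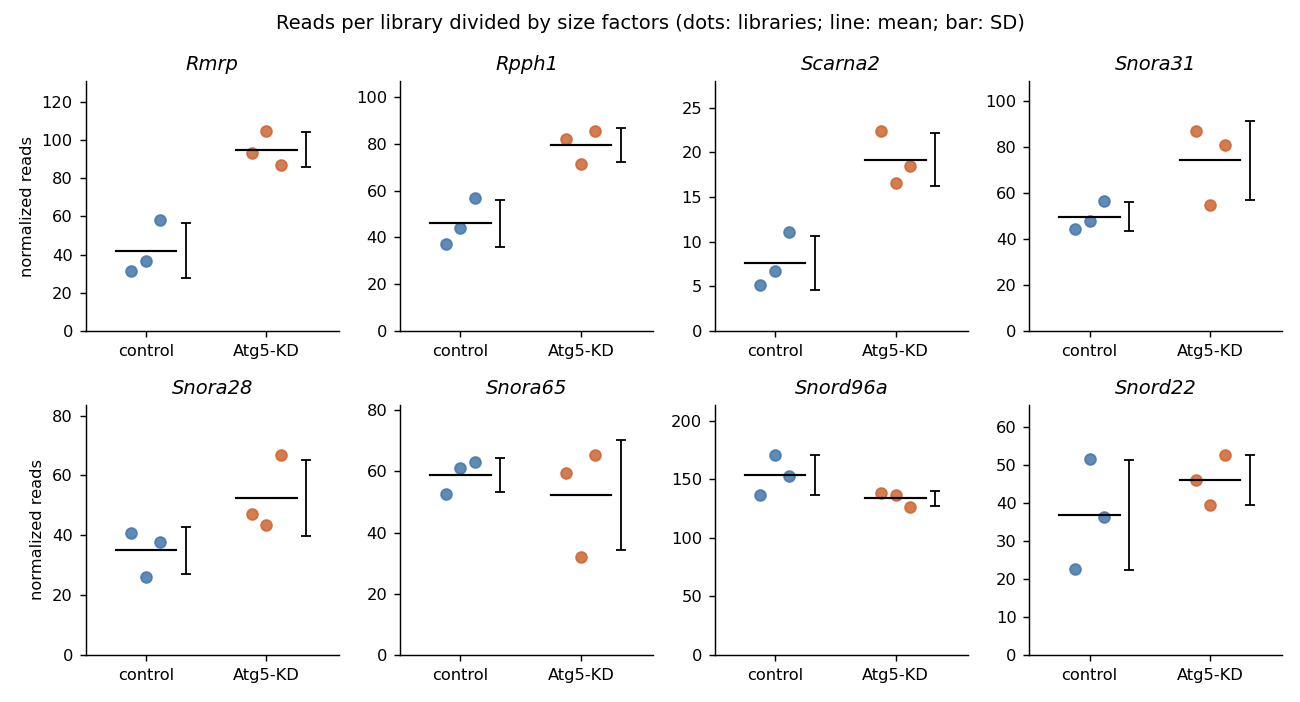
Reads divided by size factors in each of the 3 control and 3 Atg5-KD libraries for 8 members, with the mean (line) and the SD (bar). Rmrp, Rpph1, Scarna2 and Snora28 show no overlap between the groups, while Snora31, Snora65, Snord96a and Snord22 overlap.

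Other genes lie close to both. Rmrp overlaps Ccdc107 on the opposite strand, and Rpph1 overlaps Ccnb1ip1 on its own strand and beside Parp2. In the authors' deposited table the log2 fold change was -0.18 for Ccdc107 (SE 0.16, adjusted p 0.479), 0.83 for Ccnb1ip1 (SE 0.69, adjusted p 0.438, base mean 9.41) and 0.09 for Parp2 (SE 0.12, adjusted p 0.677). Whether strand was used in counting is not stated; without it, reads of Rmrp and Ccdc107 cannot be told apart in the overlap. Reads of Rpph1 and Ccnb1ip1, which share a strand, cannot be told apart by strand in either case.

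The protein subunits of both enzymes were not called. By the authors' deposited table, none (0) of 10 tested genes for subunits of RNase P and MRP were called higher and 0 lower, and at an unadjusted p under 0.05 the DESeq2 test gave 0 higher and 1 lower (Rpp25l, named after its value was seen). Pop1, the largest subunit, had a log2 fold change there of 0.17 (SE 0.15, adjusted p 0.463), and Pop4 one of 0.02 (SE 0.16, adjusted p 0.944).

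Of 32 tested genes of RNA polymerase III and its factors, the authors' deposited table called 3 higher (9.38%) and 1 lower (3.12%), beside 10.4% and 10.5% of all tested rows. The highest was Bdp1, a subunit of the initiation factor TFIIIB, which the authors' deposited table put at a log2 fold change of 0.79 (SE 0.13, adjusted p 1.05e-07). In the authors' deposited table Polr3f, a subunit of the polymerase, stood at 0.38 (SE 0.12, adjusted p 0.0113) and Gtf3c3, a subunit of TFIIIC, at 0.35 (SE 0.11, adjusted p 0.00909). Maf1, the repressor of the polymerase, fell by 0.30 on the log2 scale (SE 0.10, adjusted p 0.0132) in the authors' deposited table. The list's median log2 fold change was -0.04.

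The 9 scaRNAs had the largest log2 ratio of summed reads among classes of more than 1 member, on a small number of reads. Scarna2, a guide RNA for the spliceosomal U2 RNA with a gene of its own, had 7, 9 and 14 reads in control libraries and 18, 13 and 13 in Atg5-KD libraries. Its normalized values, 5.11, 6.72 and 11.0 against 22.4, 16.6 and 18.5, did not overlap, but at 1.34 on the log2 scale (SE 0.56) it missed the threshold of the authors' deposited table (adjusted p 0.0746). Scarna9 had 1, 5 and 0 reads in control libraries and 3, 6 and 4 in Atg5-KD libraries, and Scarna6 had 5, 5 and 6 against 3, 3 and 4. In the authors' deposited table these stood at log2 fold changes of 1.93 (SE 1.17, adjusted p 0.256) and 0.12 (SE 0.94, adjusted p 0.952).

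The other scaRNAs had no adjusted p. Scarna10 had 2, 0 and 0 control reads against 2, 2 and 4 in Atg5-KD libraries, and Scarna13 had 1, 2 and 1 against 3, 2 and 0. Scarna17, Scarna3b, Scarna8 and Scarna3a had at most 2 reads in any library. Summed over the 9 scaRNAs, normalized reads were 16.4 ± 1.77 in control and 38.5 ± 1.42 in Atg5-KD libraries (SD, n = 3 each), from 20 to 23 and 28 to 31 raw reads per library, a log2 ratio of 1.23. Without Scarna2 the sums were 8.76 ± 1.45 and 19.3 ± 2.77, a log2 ratio of 1.14. These sums carry no test, since the members were chosen with results known.

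**Figure D4:**
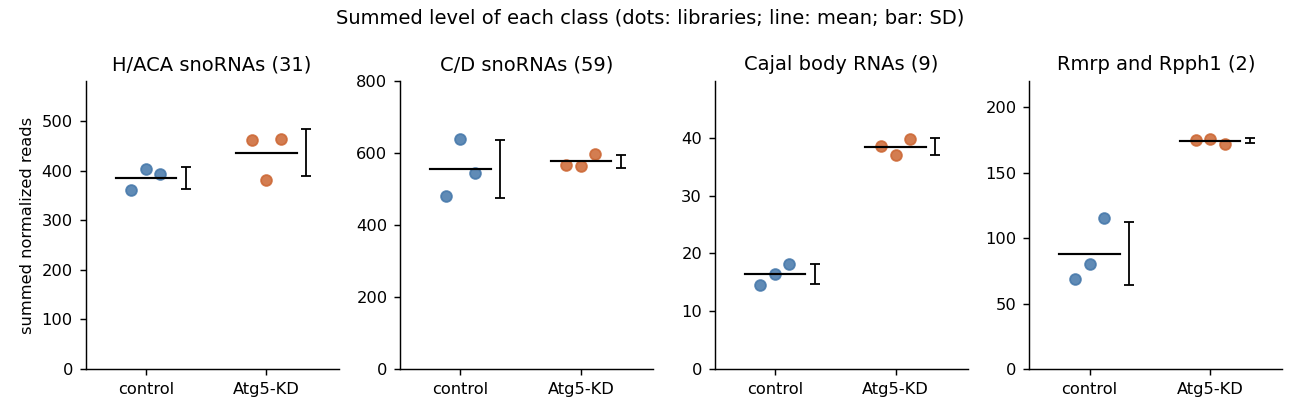
Summed reads divided by size factors in each of the 3 control and 3 Atg5-KD libraries for the 31 H/ACA snoRNAs, the 59 C/D snoRNAs, the 9 scaRNAs and the pair Rmrp and Rpph1, with mean (line) and SD (bar). The scaRNAs (16.4 against 38.5) and the pair (88.1 against 174.5) do not overlap between the groups, while both snoRNA classes do. The pair was chosen because both of its members were called, so its lack of overlap follows from that choice.

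None of the 26 tested H/ACA snoRNAs was called in the authors' deposited table. Snora31 had 61, 64 and 72 reads in control and 70, 43 and 57 in Atg5-KD libraries, or 44.5, 47.8 and 56.8 against 87.0, 54.9 and 81.1 after normalization. The groups overlapped by 1 library, and the authors' deposited table put it at 0.58 on the log2 scale (SE 0.28, adjusted p 0.126). Snora65 had 72, 82 and 80 reads against 48, 25 and 46, and 1 Atg5-KD library, at 31.9 normalized reads, lay below the other 5. Its log2 fold change there was -0.17 (SE 0.30, adjusted p 0.757, authors' deposited table).

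Snora28 and Snora81 showed no overlap between the groups. Snora28 had 56, 35 and 48 reads against 38, 34 and 47, and Snora81 had 40, 29 and 36 against 34, 31 and 27, which after normalization gave 34.9 ± 7.79 against 52.5 ± 12.6 and 26.4 ± 4.15 against 40.1 ± 1.96 (SD, n = 3 each). The deposited table of the authors put them at log2 fold changes of 0.58 (SE 0.33, adjusted p 0.212) and 0.60 (SE 0.35, adjusted p 0.228). Snora70 went the other way in value, with 19, 39 and 49 reads against 16, 14 and 16 and a log2 fold change of -0.43 (SE 0.46, adjusted p 0.573) in the authors' deposited table. Summed over 31 members, the H/ACA class stood at 386.4 ± 22.3 and 436.4 ± 47.5 normalized reads (SD, n = 3 each), with overlapping groups and a log2 ratio of 0.18.

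The C/D snoRNAs gave 0 calls among 36 tested in the authors' deposited table. Snord96a had 187, 229 and 194 reads in control and 111, 107 and 89 in Atg5-KD libraries, which became 137, 171 and 153 against 138, 137 and 127 after division by size factors. The groups overlapped, and the log2 fold change was -0.20 per the authors' deposited table (SE 0.19, adjusted p 0.512). Snord22 had 31, 69 and 46 reads against 37, 31 and 37, Snord104 had 38, 72 and 36 against 26, 22 and 20, and Snord52 had 20, 32 and 26 against 17, 14 and 17. In each of the 3, control library b held the most reads, and the groups overlapped after normalization. Per the authors' deposited table the log2 fold changes were 0.32 (SE 0.35, adjusted p 0.582), -0.31 (SE 0.39, adjusted p 0.645) and 0.10 (SE 0.45, adjusted p 0.917).

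Snord19, the fifth C/D member by base mean, had 24, 13 and 20 reads against 15, 15 and 15, and Atg5-KD values (19.7 ± 1.44, SD, n = 3) lay above control values (14.3 ± 4.10, SD, n = 3). Its log2 fold change was 0.46 (SE 0.49, adjusted p 0.569) in the authors' deposited table. Snord70, named after its value was seen, had 4, 3 and 2 reads against 5, 10 and 7 and the highest fold change of the tested C/D members in the authors' deposited table, 4.27-fold (adjusted p 0.0686). Snord111, just under the limit for an adjusted p, had 1, 1 and 1 reads against 4, 6 and 2. Over all 59 members the C/D class stood at 555.4 ± 79.9 and 577.0 ± 18.0 normalized reads (SD, n = 3 each), a log2 ratio of 0.06.

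Among the 69 tested members, all Atg5-KD values lay above all control values for 9 (Rmrp, Rpph1, Scarna2, Snora28, Snora81, Snord19, Snord2, Snord53 and Snord70) and below for 0. Among the 3987 tested rows with a base mean up to 70, the shares were 16.2% and 14.9%. The 9 of 69 above were thus near the background share for that direction. The 0 of 69 below was under the share of 14.9%, and this difference was not tested. These background rows were not matched to the members' levels, with a median base mean of 5.11 over the 104 members. Snord96a lay above their range.

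The remaining RNAs had few reads. Terc had 8, 5 and 5 reads in control and 4, 4 and 1 in Atg5-KD libraries, with a log2 fold change of -0.22 (SE 0.97, adjusted p 0.914) in the authors' deposited table, and Tert, the protein subunit of telomerase, stood there at 0.18 (SE 0.16, adjusted p 0.475). Rnu73b, which GENCODE lists as a snoRNA in an intron of Rps3a1 and which is no spliceosomal RNA despite its symbol, had 22, 21 and 24 reads against 7, 23 and 11. Its log2 fold change was 0.09 (SE 0.52, adjusted p 0.940) in the authors' deposited table. Rnu12, of the minor spliceosome, had 0, 2 and 1 reads against 0, 0 and 0, and Rnu6, Rnu7 and Rnu11 had 0 reads in all 6 libraries. The spliceosomal rows Rnu6, Rnu11 and Rnu12 thus had too few reads for a comparison, and other spliceosomal RNAs are not analysed here. The cause of these low counts was not tested.

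Host genes allowed a further comparison, because an intronic RNA and its host share a transcript. By GENCODE, 50 members lay in introns, 45 overlapped a host exon and 9 had no host on their strand; 40 members shared a host with another member, so hosts are not independent of each other. The authors' deposited table called 3 of 68 tested hosts higher (4.41%) and 15 lower (22.1%), beside 10.4% and 10.5% of all tested rows. Among the 22 tested hosts that encode ribosomal proteins, 0 were higher and 10 were lower (45.5%), with a median log2 fold change of -0.25. The 23 tested members inside such hosts had a median of 0.05, with 13 above 0. Most hosts, those for ribosomal proteins included, lay above the median base mean of tested rows (329). Rows of low level were called less often, with 5.64% lower under a base mean of 150. No background of the hosts' own level was computed, so their shares are not matched for level.

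Eef2, a translation elongation factor, fell by 0.51 in log2 units (SE 0.08, adjusted p 2.88e-08) in the authors' deposited table, and Rps2 fell by 0.48 (SE 0.10, adjusted p 3.67e-05). Rpl12, host of Snora65, fell by 0.33 (SE 0.11, adjusted p 0.0216), and Rpl10, host of Snora70, fell by 0.31 (SE 0.11, adjusted p 0.0244) in the authors' deposited table. Eif5, host of Snora28, was at 0.25 (SE 0.08, adjusted p 0.0170) and Cep295, host of Scarna9, at 0.47 (SE 0.13, adjusted p 0.00201), both called higher in the authors' deposited table. Tpt1, host of Snora31, was at -0.03 (SE 0.11, adjusted p 0.884), Rack1, host of Snord96a, at -0.24 (SE 0.10, adjusted p 0.0721) and Eif4a2, host of Snora81, at 0.21 (SE 0.10, adjusted p 0.119) in the authors' deposited table.

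For 58 of the 60 tested members with a host row, the member's 95% interval held the host's log2 fold change. The exceptions, named after their values were seen, were Snord70 in Nop58 and Snora31 in Tpt1. The same 58 intervals also held 0, so they were too wide to show whether members followed their hosts. As a description across these 60 pairs, which share libraries and in part hosts, Pearson's r of both fold changes was 0.42 and Spearman's rho 0.36; over the 24 pairs of base mean at least 10 they were 0.21 and 0.13. By position, the summed level went from 278.4 ± 18.1 to 342.7 ± 21.2 normalized reads for members inside introns and from 614.5 ± 67.7 to 646.8 ± 44.9 for those overlapping a host exon, where reads of host and member cannot be told apart (SD, n = 3 each, log2 ratios 0.30 and 0.07). Reads of unspliced host RNA that cover an intron would also count for a member inside it, and their part was not tested. The members without a host stood at 175.4 ± 28.1 and 258.5 ± 15.6, and without Rmrp and Rpph1 their log2 ratio was -0.06. Of the hosts named Gas5 or Snhg, 6 were tested: 0 were called higher and 1 lower (Snhg18), per the authors' deposited table.

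**Figure D5:**
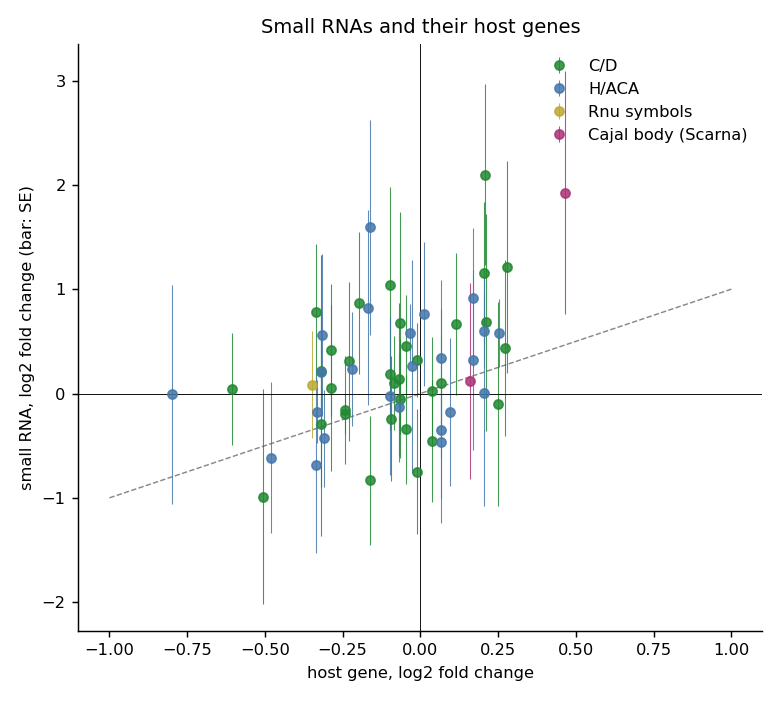
Log2 fold change of each of 60 tested small RNAs (vertical, bar is the SE) against that of its host gene (horizontal), both from the deposited table and coloured by class, with a dashed line at equality. Hosts lie between -0.80 and 0.47. The 95% intervals, which are wider than the bars, hold the host's value for 58 of the 60 members, and the same 58 also hold 0.

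Over all lists of genes for the proteins of these particles, the authors' deposited table called 7 of 111 tested genes higher (6.31%) and 4 lower (3.60%), beside 10.4% and 10.5% of all tested rows. Scaled to all counted reads, the counts were 1 and 55 of 111, beside 3.6% and 38.7% of all tested rows on that scale. Of 21 tested genes for snoRNA proteins and their assembly, 1 was higher: Tgs1, which methylates the cap of small RNAs, at a log2 fold change of 0.45 (SE 0.13, adjusted p 0.00345) in the authors' deposited table. Of 5 tested genes for Ro, La and vault proteins, 2 were higher: Trove2, which encodes the Ro protein, at 0.45 (SE 0.12, adjusted p 0.00244) and Tep1, a vault and telomerase protein, at 0.40 (SE 0.14, adjusted p 0.0221) in the authors' deposited table. Mepce, the capping enzyme of the Rn7sk RNA, fell by 0.37 on the log2 scale (SE 0.10, adjusted p 0.00244), the 1 call among 7 genes of that particle in the authors' deposited table. A list of 35 tested genes covered Sm and other proteins of spliceosomal particles, their assembly and the Integrator, which cuts small nuclear RNA ends. Of these, Ints6 was higher (0.45, SE 0.14, adjusted p 0.00754), while Snrpa (-0.41, SE 0.10, adjusted p 0.000525) and Ints1 (-0.38, SE 0.13, adjusted p 0.0163) were lower in the authors' deposited table.

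Facts of the whole libraries stand beside these results. Rn45s, the ribosomal RNA locus and itself without a poly(A) tail, made up an estimated 1.17% of counted reads in control and 17.9% in Atg5-KD libraries, with a log2 fold change of 4.24 (SE 0.32) in the authors' deposited table. Leukocyte markers summed to 1934 normalized counts in control and 411.6 in Atg5-KD libraries, with 6 of 7 called lower, and 2 of 4 theca and stroma markers were called lower (5862 against 3105) in the authors' deposited table. Of 7 granulosa markers, 1 was called higher and 1 lower (36209 against 33699), and of 5 oocyte markers 0 and 0 (56.5 against 67.4). None (0) of the markers in any list were at 0. However, Cyp17a1, Bmp15 and Cyp19a1 had base means of 0.13, 1.02 and 2.34 and no adjusted p. Inha made up most of the granulosa sum and Lyz2 most of the leukocyte sum (31530 and 1476 in control libraries). The part of Rn45s and of these cell types in the members' differences was not tested. In bulk RNA, fewer cells of a type and less RNA per cell cannot be told apart.

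With all counted reads, Rn45s included, as the scale, every log2 fold change moves by -0.30. On that scale Rmrp was still called higher (0.88, adjusted p 0.00605), Rpph1 no longer was (0.49, adjusted p 0.133), and Snord96a was called lower (-0.50, adjusted p 0.0220). The background on that scale was 3.6% higher and 38.7% lower among 14835 tested rows, with 1 of 69 members higher and 1 lower. The summed log2 ratios there were -0.12 for the H/ACA class, -0.24 for the C/D class and 0.93 for the scaRNAs. Of the partner genes, 1 was higher (Bdp1) and 55 lower, and of the hosts 0 were higher and 44 lower, 21 of them among the 22 that encode ribosomal proteins.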

How the data were processed

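RNA of 3 control and 3 Atg5-KD libraries was sequenced, and the processed file is 1 table of the authors' own comparison, with 0 columns per library. DESeq2 1.30.1, StringTie 2.1.4, featureCounts 1.6.2, STAR and mm10 are named by the submitters' processing notes without a role; the annotation used is not stated. Per the file headers, the base mean is a signal made by the authors, the mean of counts divided by size factors. The log2 fold change and its SE are on the log2 scale and were deposited by the authors. A Wald score was also deposited by the authors. The p-value and the adjusted p-value were deposited by the authors, and 0 of the rows differed at a tolerance of 1e-06 when the statistic, p and Benjamini-Hochberg adjustment over 14835 rows were recomputed.

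Whole reads per library were recovered here from the base means, which carry 15 significant digits. Rows with 1 read in all give each library's size factor, the sign of their fold change gives its group, and a base mean then fixes the reads of the row. This solved 8394 of 8394 rows tried, with several candidates for 1 of them (Snord96a), settled by its fold change and SE. For 69 of 69 tested members, a negative binomial fit to the recovered reads gave the deposited log2 fold change within 0.01 (largest difference 2.17e-06). The recovery was also tested on simulated data. Estimated depth is the sum over rows of the group's mean, times the library's size factor. Group means were derived from the base mean and the fold change.

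Calls are deposited adjusted p under 0.05, two-sided. The quasi-likelihood count test planned for tables of counts was not run, since the table has no columns of counts per library. Hosts are GENCODE M21 genes on the same strand that span the member. Named genes are the called members, the 5 of highest base mean in larger classes and all of smaller ones, their hosts, up to 4 called partner genes per list or the 2 of highest base mean, Atg5, Rn45s and the members next to the limit on low values. This gave 26 members, 22 of them above 0. Members, lists and tests were chosen with earlier results of these data known. Alternatives were the rows adjusted over, scaling, base mean of at least 10, adjusted p under 0.01, pseudocount and each library left out. Python 3.11.15, numpy 2.4.6, scipy 1.17.1 and pandas 2.3.3 were used.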

Additional observations from a re-analysis of the deposited data

How the results depend on the processing

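No paired analysis was possible because the table pools the libraries and the recovered reads carry no replicate number. With adjustment over all rows with a p-value, or with a base mean of at least 10, the calls stayed at 2 members higher and 0 lower, and partner genes (adjustment only) at 7 and 4. The members called higher were 1 at an adjusted p under 0.01 (Rmrp). Each library was also left out in turn with the authors' dispersion kept, an alternative added after seeing the data. These refits covered only the named members with an adjusted p, so the other tested members were not checked this way. Among the refitted members, 1 to 3 were called higher. The 3 were without control c, where Scarna2 also passed (p 0.00951 by that Wald test, 0.0215 to 0.0739 without another library). Members called lower were 0 in each of these, for the left-out libraries among the refitted members only. Scaled to all counted reads, 1 member was higher and 1 lower, and 1 partner gene was higher and 55 lower. The background on that scale was 3.6% of all tested rows higher and 38.7% lower. On that scale the summed log2 ratios moved to -0.12 for H/ACA snoRNAs, -0.24 for C/D snoRNAs, 0.93 for scaRNAs and 0.49 for Rpph1; the first 2 changed sign, and so did the C/D class without control a. Leaving out each library in turn gave 0.13 to 0.26, -0.04 to 0.17, 1.15 to 1.31 and 0.66 to 0.97 for these classes, 1.00 to 1.48 for Rmrp, -0.54 to 0.35 for Rnu rows and -0.49 to 0.16 for Terc. Of 176 alternatives for single named members, 168 log2 ratios moved by less than the spread between libraries, 8 moved by more, and 0 called values changed sign. The called values were those of Rmrp and Rpph1 only. Among named members without a call, Rnu73b, Scarna6, Snora23, Snora65, Snord104, Snord52 and Terc changed sign when some library was left out. The calls of Rpph1 and Snord96a did change, Rpph1 losing its call and Snord96a gaining one (lower) on the scale of all counted reads. Of the 104 members, 35 lay under the base mean at which the deposited table gives an adjusted p, and their differences could not be called either way.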
